A study of Mus musculus with 6 samples.

Results

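The genes described here encode the nuclear subunits of the mitochondrial respiratory chain and of ATP synthase, with a few factors that assemble complex I. They were chosen by symbol, as genes named Nduf, Uqcr, Atp5 or Cox4 to Cox8, plus Sdha, Sdhb, Sdhc, Sdhd, Cyc1 and Cycs. They numbered 91 of the 19938 genes with a probe set of their own on a whole-transcript array, and 118 probe sets carried their symbols. Where a gene had several probe sets, the brightest by mean signal was used. Complex I had 43 members (6 core subunits, 30 accessory subunits and 7 assembly factors), complex II 4, complex III 9, complex IV 17 and complex V, the ATP synthase, 17. Cytochrome c (Cycs) was the remaining member.

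The samples were keratinocytes taken by laser capture from the tip of the migrating epithelial tongue of mouse skin wounds, 3 days after wounding. Of the 6 arrays, 3 came from diabetic mice, which had been fed a high fat high fructose diet for 16 weeks from 8 weeks of age, and 3 came from normal mice on a control diet for as long. The labels give no strain, sex or number of mice, and say that captured cells of a sample were accumulated over its sections. All tissue had been fixed and dehydrated, and RNA was labelled from picogram inputs. The question was which genes of keratinocytes closing a wound differ between diabetic and normal mice. Values are log2 probe set signals. Differences are diabetic minus normal on that scale, with limma's standard error (SE) and n = 3 arrays per group. In a captured sample a lower signal can come from fewer cells of a type or from less RNA per cell, and these cannot be told apart.

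The respiratory chain passes electrons from NADH through complex I, and from succinate through complex II, to ubiquinone. Complex III hands them to cytochrome c and complex IV to oxygen. Complexes I, III and IV pump protons out of the matrix, and complex V lets them back to make ATP. Complex II is also an enzyme of the citric acid cycle and is wholly encoded in the nucleus, whereas the other complexes combine nuclear subunits with subunits encoded in mitochondrial DNA. Basal keratinocytes respire, but migrating keratinocytes of a wound are known for a high use of glycolysis.

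The arrays were dim, which bounds what can be said of many members. Each array was given a background limit from 1194 chemosensory receptor genes (their 95th percentile), which lay between 1.98 and 2.11 for diabetic samples and between 2.11 and 2.12 for normal samples. Of the 91 members, 29 were above it on all arrays (31.9%, against 17.4% of all genes tested), 31 on some and 31 on none. Of the members, 51, 48 and 43 exceeded it in diabetic samples, against 41, 40 and 38 in normal samples. The share of all genes above it was likewise higher in diabetic samples, at 35.3%, 36.6% and 29.4%, against 27.4%, 28.4% and 28.7% in normal samples. With the same limit of 2.07 on every array, the numbers were 46, 45 and 46 in diabetic samples, against 43, 42 and 40 in normal samples, and the shares of all genes were 29.4%, 32.3% and 31.7%, against 29.3%, 30.5% and 31.5%. Of 15 keratinocyte markers, Krt15, Itgb4 and Krt10 exceeded the array's own limit on all 6 arrays. E-cadherin (Cdh1), Col17a1, Itga6, Krt6a, Krt16 and Krt17 were above it on none. Krt5, Krt14 and Krt1 were above it on 2 diabetic and 0 normal arrays. Others went the other way, with Trp63 above it on 0 diabetic and 2 normal arrays, Perp on 0 and 1, and Dsp on 2 and 3.

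No member changed past the adjusted threshold, and the small differences that were measured leaned towards higher signal in diabetic samples. With limma and Benjamini-Hochberg adjustment over all genes, 0 of 91 members passed an adjusted p of 0.05 (0% of all genes tested), and the smallest adjusted p of a member was 0.78. An unmoderated linear model called 0 as well. Below 0.05 without adjustment there were 8 members, and 5.56% of all genes. Of these, 6 were higher in diabetic samples (2.64% of all genes) and 2 were lower (2.92%). The 6 were the complex I accessory subunits Ndufb8, Ndufa10 and Ndufa13, the complex III subunit Uqcr11, and the ATP synthase subunits Atp5j2 and Atp5g1. The 2 were the complex I core subunit Ndufs3 and the complex IV subunit Cox5a. Without diabetic replicate 2 or normal replicate 3 the lower members numbered 1, and without normal replicate 1 they numbered 0. Without diabetic replicate 3 there were 9 higher members, the most of any array left out.

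Across all 91 members 57 had a difference above 0 (48.7% of all genes did), and the median difference was 0.05, against less than 0.01 in size for all genes. For 88 members the 95% confidence interval stayed within 2-fold either way, and for 72 within 1.5-fold. All diabetic values lay above all normal values for 8 members (5.02% of all genes), and all lay below for 2 (5.66%). Skeletal muscle markers leaned the same way in these samples. Of 20 such genes 15 were higher in diabetic samples, with a median difference of 0.07 and a mean signal of 2.18 to 2.27 in diabetic samples, against 2.11 to 2.16 in normal samples. All diabetic values lay above all normal values for 4 of the 20 (5.02% of all genes), and all lay below for 0 (5.66%). An unadjusted p under 0.05 in limma was found for 2, both higher (2.64% of all genes). Of these 20, 6 exceeded background on all 6 arrays and 7 on none. Their part in the members' differences was not tested.

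**Figure D1:**
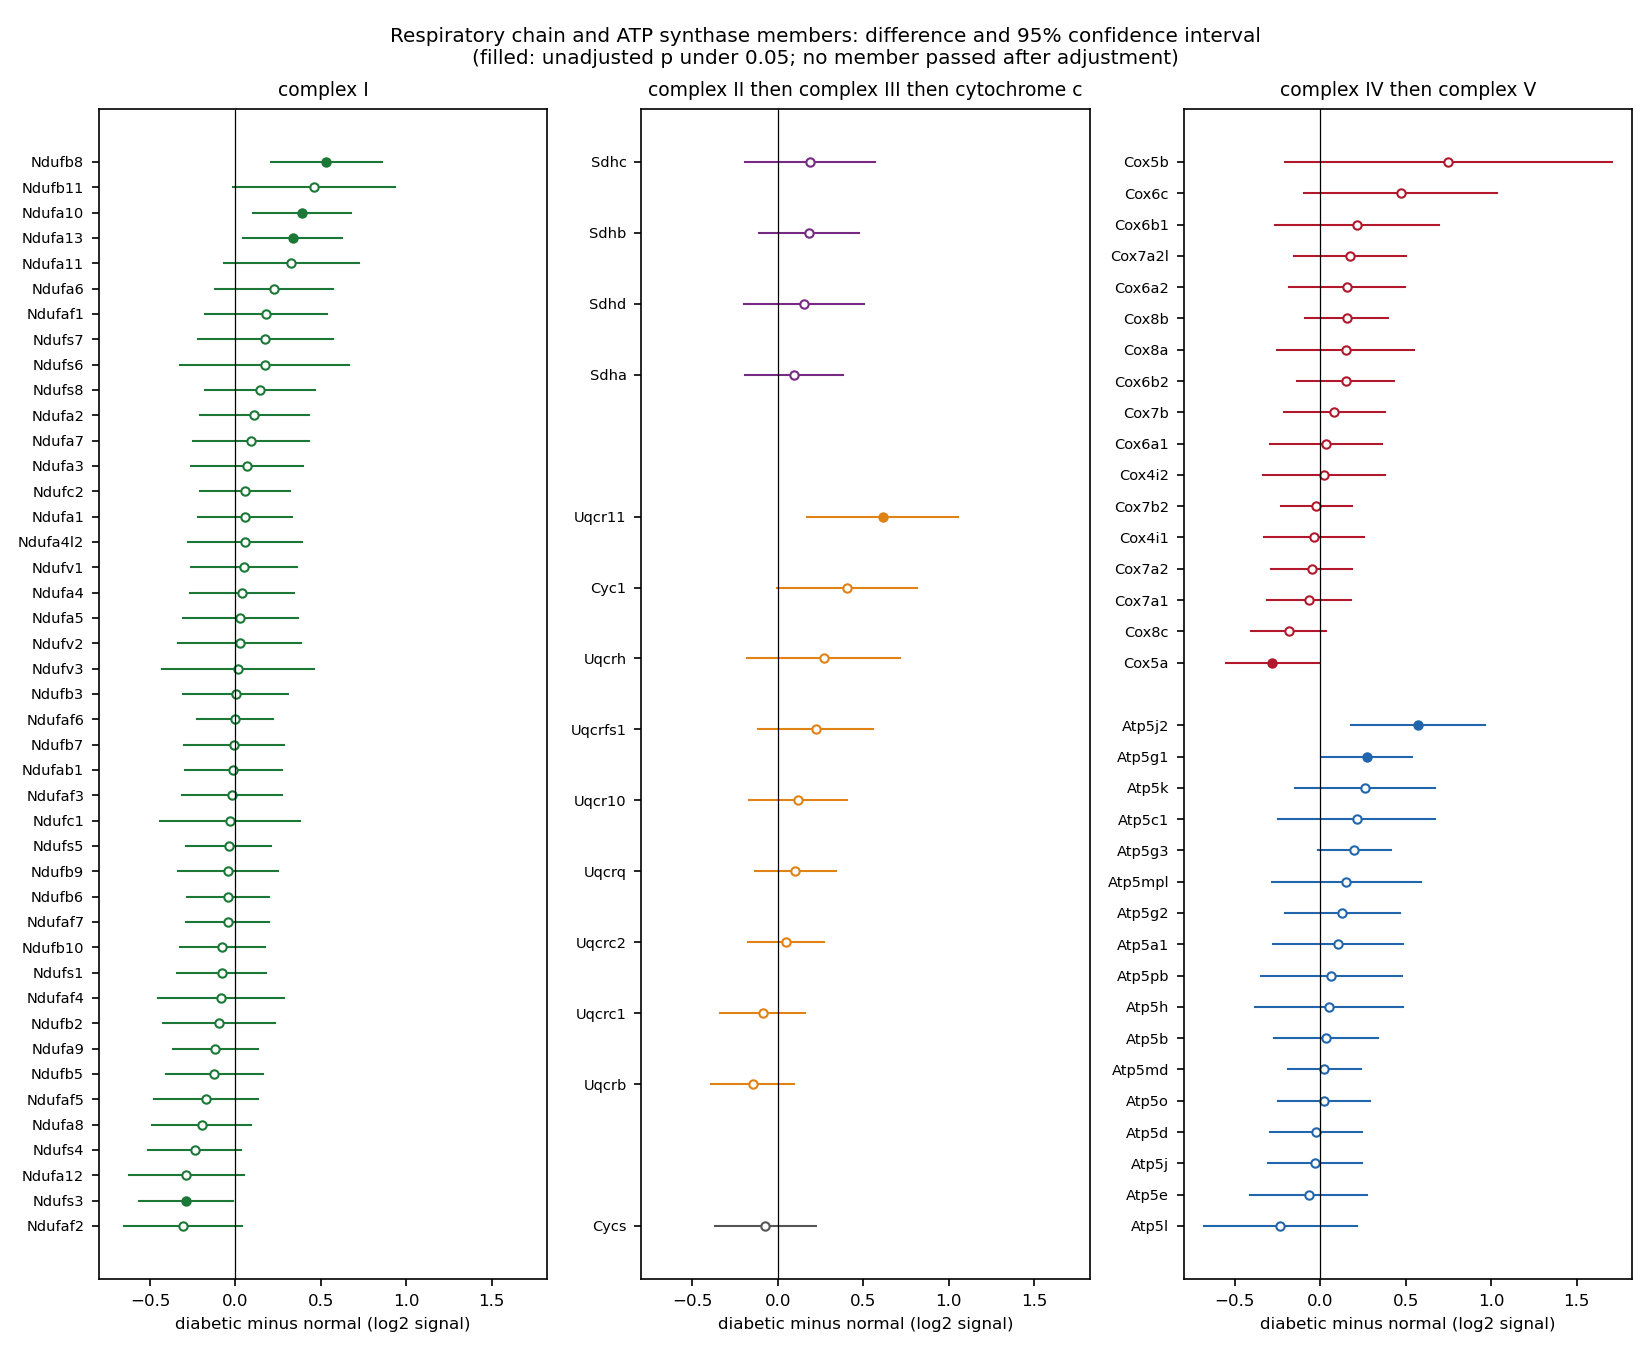
Difference between diabetic and normal arrays for each of the 91 members, in log2 signal, with the 95% confidence interval as a line, grouped by complex and sorted within it. Filled points have an unadjusted p under 0.05, and these 8 include Ndufb8 at 0.53 and Uqcr11 at 0.61 on the higher side and Ndufs3 at -0.29 and Cox5a at -0.28 on the lower.

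Members were also described by level. Of the 45 members with a mean over all 6 arrays above the mean limit, 36 were higher in diabetic samples, with a median difference of 0.15. Among all 5884 genes with a mean above that limit, 56.1% were higher and the median difference was 0.03. The other 46 members were split 21 higher and 25 lower, with a median of -0.02, while 45.6% of all genes at that level were higher. The mean signal of the 45 members was 2.81, 2.70 and 2.71 on the diabetic arrays, against 2.55, 2.61 and 2.59 on the normal arrays, without overlap. For the 5884 genes at that level it was 2.54, 2.61 and 2.59 on the diabetic arrays, against 2.52, 2.57 and 2.56 on the normal arrays, with overlap. After quantile normalization 34 of the 45 were higher, with a median of 0.12, against 50.1% of all genes at that level. With each array left out in turn between 32 and 36 of the 45 were higher, with medians from 0.10 without diabetic replicate 1 to 0.16 without diabetic replicate 3. Of the 45, Ndufaf1, Ndufb11, Cyc1 and Cox6c were above the limit by their diabetic mean only and are 4 of the 36 higher members. By both means 39 members were above it, 32 higher and 7 lower. By their normal mean only, 2 members (Ndufs3 and Atp5e) were above it, both lower. The split therefore depends in part on the differences themselves. It was made after the values were seen, and these counts and medians describe the arrays without a test.

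**Figure D2:**
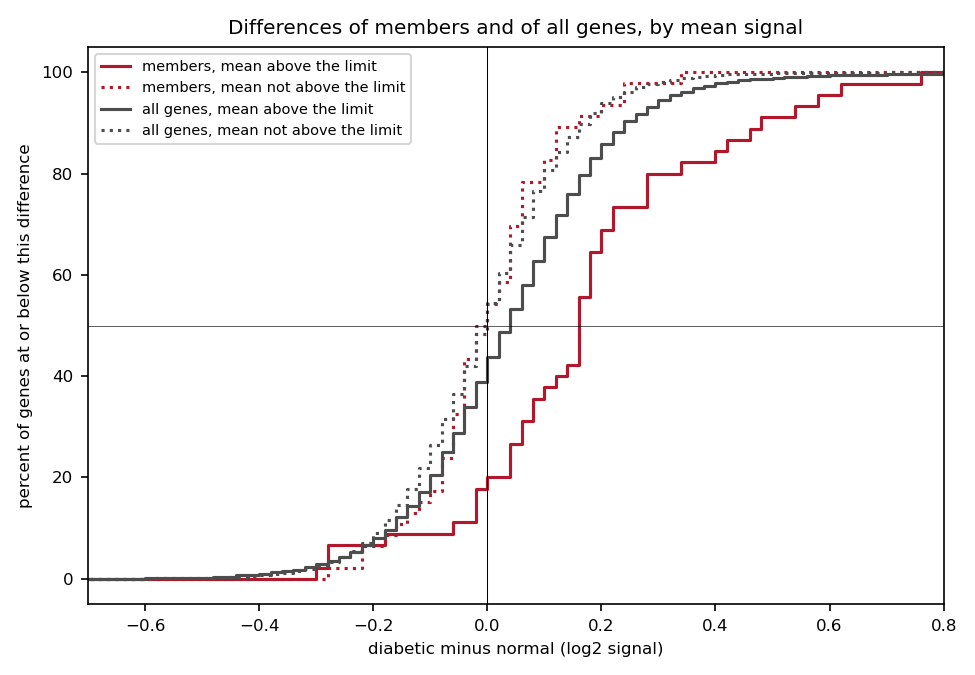
Cumulative percent of genes (vertical) against the difference between diabetic and normal arrays in log2 signal (horizontal), for members and all genes whose mean signal was above the mean background limit (solid) or not (dotted). The solid line of the 45 members crosses 50% near its median of 0.15, to the right of the 5884 genes at that level, whose median is 0.03, while the dotted lines lie close together.

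Promoter windows are shown for the member with the smallest unadjusted p in each complex that had a member under 0.05, so that the sequence ahead of these genes can be read beside their values. They come from RefSeq on GRCm38.p6 and run from 250 bases before to 50 after the start of transcription, 5′ to 3′ on the gene's strand. Capitals mark matches to letters bound by factors known for control of respiratory genes. The windows are chr19:44555393-44555692 (minus strand) for Ndufb8, chr10:80406772-80407071 (minus) for Uqcr11, chr9:57520982-57521281 (plus) for Cox5a and chr5:145191492-145191791 (minus) for Atp5j2.
Ndufb8: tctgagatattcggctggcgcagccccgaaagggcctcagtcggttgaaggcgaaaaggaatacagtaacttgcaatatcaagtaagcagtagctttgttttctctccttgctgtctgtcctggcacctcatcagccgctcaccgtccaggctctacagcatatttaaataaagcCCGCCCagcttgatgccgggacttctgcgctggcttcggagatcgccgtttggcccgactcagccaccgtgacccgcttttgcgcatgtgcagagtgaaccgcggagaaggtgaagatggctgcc
Uqcr11: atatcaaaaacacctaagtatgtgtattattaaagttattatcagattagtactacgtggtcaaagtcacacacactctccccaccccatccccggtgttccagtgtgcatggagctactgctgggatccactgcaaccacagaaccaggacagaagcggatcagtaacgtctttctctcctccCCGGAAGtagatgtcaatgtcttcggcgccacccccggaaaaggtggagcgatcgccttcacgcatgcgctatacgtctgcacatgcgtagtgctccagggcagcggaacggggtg
Cox5a: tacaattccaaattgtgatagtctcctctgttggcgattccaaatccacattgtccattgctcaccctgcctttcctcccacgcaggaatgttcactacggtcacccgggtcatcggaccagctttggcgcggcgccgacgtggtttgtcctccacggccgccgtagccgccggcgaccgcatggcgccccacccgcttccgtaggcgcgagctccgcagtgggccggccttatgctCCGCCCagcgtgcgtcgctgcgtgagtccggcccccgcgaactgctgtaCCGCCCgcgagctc
Atp5j2: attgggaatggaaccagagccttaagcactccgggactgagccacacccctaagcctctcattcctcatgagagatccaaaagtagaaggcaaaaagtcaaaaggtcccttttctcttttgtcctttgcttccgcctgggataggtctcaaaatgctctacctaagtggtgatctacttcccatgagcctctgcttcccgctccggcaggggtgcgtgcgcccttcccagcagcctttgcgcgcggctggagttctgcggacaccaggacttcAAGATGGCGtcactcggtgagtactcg

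In those windows the capitals of Ndufb8 and Cox5a are Sp1 letters on the reverse strand, those of Uqcr11 are GABP letters and those of Atp5j2 are YY1 letters just after the start, and no matches overlap. Both strands were searched for GCGCA, any base and GCGC in a row (NRF1), CCGGAAG (GABP), AAGGTCA (ERR), AANATGGCG (YY1) and GGGCGG (Sp1), where N is any base. Windows were found for 74 of the 91 members, 79 windows in all. NRF1 letters were in 24.1% of the members' windows, against 6.91% of windows of genes tested and 4.60% of all windows of that length. For GABP the shares were 22.8%, 12.1% and 8.86%, for YY1 12.7%, 3.27% and 2.38%, and for ERR 8.86%, 3.82% and 4.72%. Sp1 letters were in 44.3% of the members' windows, 49.2% of those of genes tested and 35.7% of all. Of the 8 windows of members with an unadjusted p under 0.05, 0 held the NRF1 letters, 2 the GABP, 1 the YY1, 0 the ERR and 5 the Sp1 letters. These are descriptions of letters in a window and say nothing of binding.

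Complex I, the NADH dehydrogenase, was evenly split when its assembly factors were counted, with 22 members higher and 21 lower in diabetic samples. The median difference of these members was below 0.01. Of the 30 accessory subunits 17 were higher and 13 lower (56.7% higher, against 48.7% of all genes), with a median of 0.02. Ndufb8, an accessory subunit of the membrane arm (probe set 10468016), was at 3.06, 2.78 and 2.79 on the diabetic arrays, against 2.35, 2.54 and 2.14 on the normal arrays. Every diabetic value lay above every normal value, and the difference was 0.53 (SE 0.15, adjusted p 0.78 in limma), a ratio of 1.45. Left-out arrays moved it between 0.43 and 0.63. Ndufa10, an accessory subunit at the base of the membrane arm, was at 2.72, 2.65 and 2.40 on the diabetic arrays, against 2.15, 2.28 and 2.17 on the normal arrays. The groups were again separate, with a difference of 0.39 (SE 0.13, adjusted p 0.78). Both genes exceeded background on all 6 arrays. Ndufa13, an accessory subunit also known as GRIM-19, was at 2.05, 2.29 and 1.94 on the diabetic arrays, against 1.85, 1.85 and 1.58 on the normal arrays, a difference of 0.34 (SE 0.13, adjusted p 0.853). It was above the limit on 2 diabetic and 0 normal arrays.

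Ndufb11 and Ndufa11, further accessory subunits of the membrane arm, had differences that depended on an array or on a probe set. Ndufb11 was at 2.11, 2.89 and 1.99 on the diabetic arrays, against 2.17, 1.79 and 1.65 on the normal arrays. Diabetic replicate 2 was the high value, and the difference of 0.46 (SE 0.22, adjusted p 0.893) was 0.18 without it. Ndufa11 was at 4.02, 3.69 and 3.96 on the diabetic arrays, against 3.36, 3.89 and 3.44 on the normal arrays, a difference of 0.33 (SE 0.18, adjusted p 0.893). Its other probe set, also well above the limit, gave -0.23. Ndufa5, an accessory subunit of the matrix arm, was at 3.83, 3.81 and 3.70 on the diabetic arrays, against 3.94, 3.64 and 3.68 on the normal arrays, a difference of 0.03 with a confidence interval from -0.31 to 0.37.

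Among the 6 core subunits of complex I measured, which are shared with bacteria and include those that carry the electrons, 4 were higher and 2 lower. Ndufs3, a core subunit of the part that reaches ubiquinone (probe set 10484912), was at 1.79, 2.02 and 2.09 on the diabetic arrays, against 2.26, 2.17 and 2.34 on the normal arrays. Every diabetic value lay below every normal value, a difference of -0.29 (SE 0.13, adjusted p 0.887 in limma). Its other probe set gave -0.33, on the same side. It was above the limit on 1 diabetic and 3 normal arrays. The other core subunits differed by 0.17 for Ndufs7, 0.14 for Ndufs8, 0.05 for Ndufv1, 0.02 for Ndufv2 and -0.08 for Ndufs1. Of the 7 assembly factors, which help build complex I and are not part of it, 1 was higher and 6 were lower, with a median of -0.05. Ndufaf2 had a difference of -0.31 (SE 0.16, adjusted p 0.893), the lowest difference of any member and -0.16 without normal replicate 1, and the accessory subunits Ndufa12 and Ndufs4 differed by -0.29 and -0.24.

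Ndufa4 and its relative Ndufa4l2 are grouped with complex I by name. Ndufa4 has since been assigned to complex IV, and Ndufa4l2 is known as a gene induced by hypoxia. Their differences were 0.04 and 0.06, and Ndufa4 was not above the limit on any array. Ndufab1, the mitochondrial acyl carrier protein, differed by -0.01.

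Complex II, succinate dehydrogenase, had all 4 subunits slightly higher in diabetic samples, with no unadjusted p under 0.05. Sdha, the flavoprotein that oxidizes succinate, was at 1.48, 1.91 and 1.89 on the diabetic arrays, against 1.62, 1.74 and 1.65 on the normal arrays, under the limit throughout. Sdhb, the iron-sulfur subunit, was at 2.40, 2.43 and 2.22 on the diabetic arrays, against 2.24, 2.30 and 1.97 on the normal arrays. The groups overlapped for both. Sdhc, a membrane anchor, was at 3.02, 2.59 and 2.91 on the diabetic arrays, against 2.97, 2.40 and 2.58 on the normal arrays. Sdhd, the other anchor, was at 2.37, 2.40 and 2.79 on the diabetic arrays, against 2.40, 2.12 and 2.57 on the normal arrays. These overlapped too. The differences were 0.09 for Sdha, 0.18 for Sdhb, 0.19 for Sdhc and 0.15 for Sdhd, with adjusted p from 0.911 to 0.954 in limma. The confidence interval of each lay within 1.5-fold either way. With single arrays left out, Sdha was at 0.02 without diabetic replicate 2, Sdhb at 0.08 without normal replicate 3, Sdhc at 0.06 without normal replicate 2 and Sdhd at 0.02 without diabetic replicate 3. The median of complex II, 0.17, was 0.09 without diabetic replicate 3.

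Complex III, which passes electrons from ubiquinone to cytochrome c, had 7 of 9 members higher, with a median difference of 0.12 that was 0.06 without normal replicate 1. Uqcr11, its smallest subunit (probe set 10370833), was at 3.63, 2.80 and 3.11 on the diabetic arrays, against 2.52, 2.38 and 2.80 on the normal arrays. The groups touched, with diabetic replicate 2 above normal replicate 3 by less than 0.01. The difference was 0.61 (SE 0.20, adjusted p 0.78 in limma), a ratio of 1.53, and was 0.39 without diabetic replicate 1. Its other probe set went the other way, at 3.14, 1.87 and 2.53 on the diabetic arrays, against 3.51, 2.64 and 2.49 on the normal arrays, a difference of -0.37. The probe sets annotated to this gene therefore disagreed, and whether either reads a copy elsewhere in the genome was not tested. Cyc1, the cytochrome c1 subunit with the heme that reduces cytochrome c, was at 2.36, 2.76 and 2.09 on the diabetic arrays, against 2.34, 1.79 and 1.87 on the normal arrays. The groups overlapped, with a difference of 0.40 (SE 0.19, adjusted p 0.893) that was 0.23 without diabetic replicate 2.

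Among the other subunits of complex III, Uqcrh, the hinge protein, was at 2.81, 2.83 and 2.89 on the diabetic arrays, against 2.01, 2.83 and 2.88 on the normal arrays. Normal replicate 1 was the low value, and the difference of 0.27 was -0.01 without it. The Rieske iron-sulfur subunit Uqcrfs1 differed by 0.22, the core proteins Uqcrc1 and Uqcrc2 by -0.09 and 0.05, Uqcr10 by 0.12, Uqcrq by 0.10 and Uqcrb by -0.15. Cytochrome c itself (Cycs), the carrier between complexes III and IV and a trigger of apoptosis when released, was under the limit on all arrays. It was at 1.30, 1.41 and 1.71 on the diabetic arrays, against 1.46, 1.77 and 1.41 on the normal arrays, a difference of -0.07. Its 2 other probe sets gave -0.09 and -0.31.

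**Figure D3:**
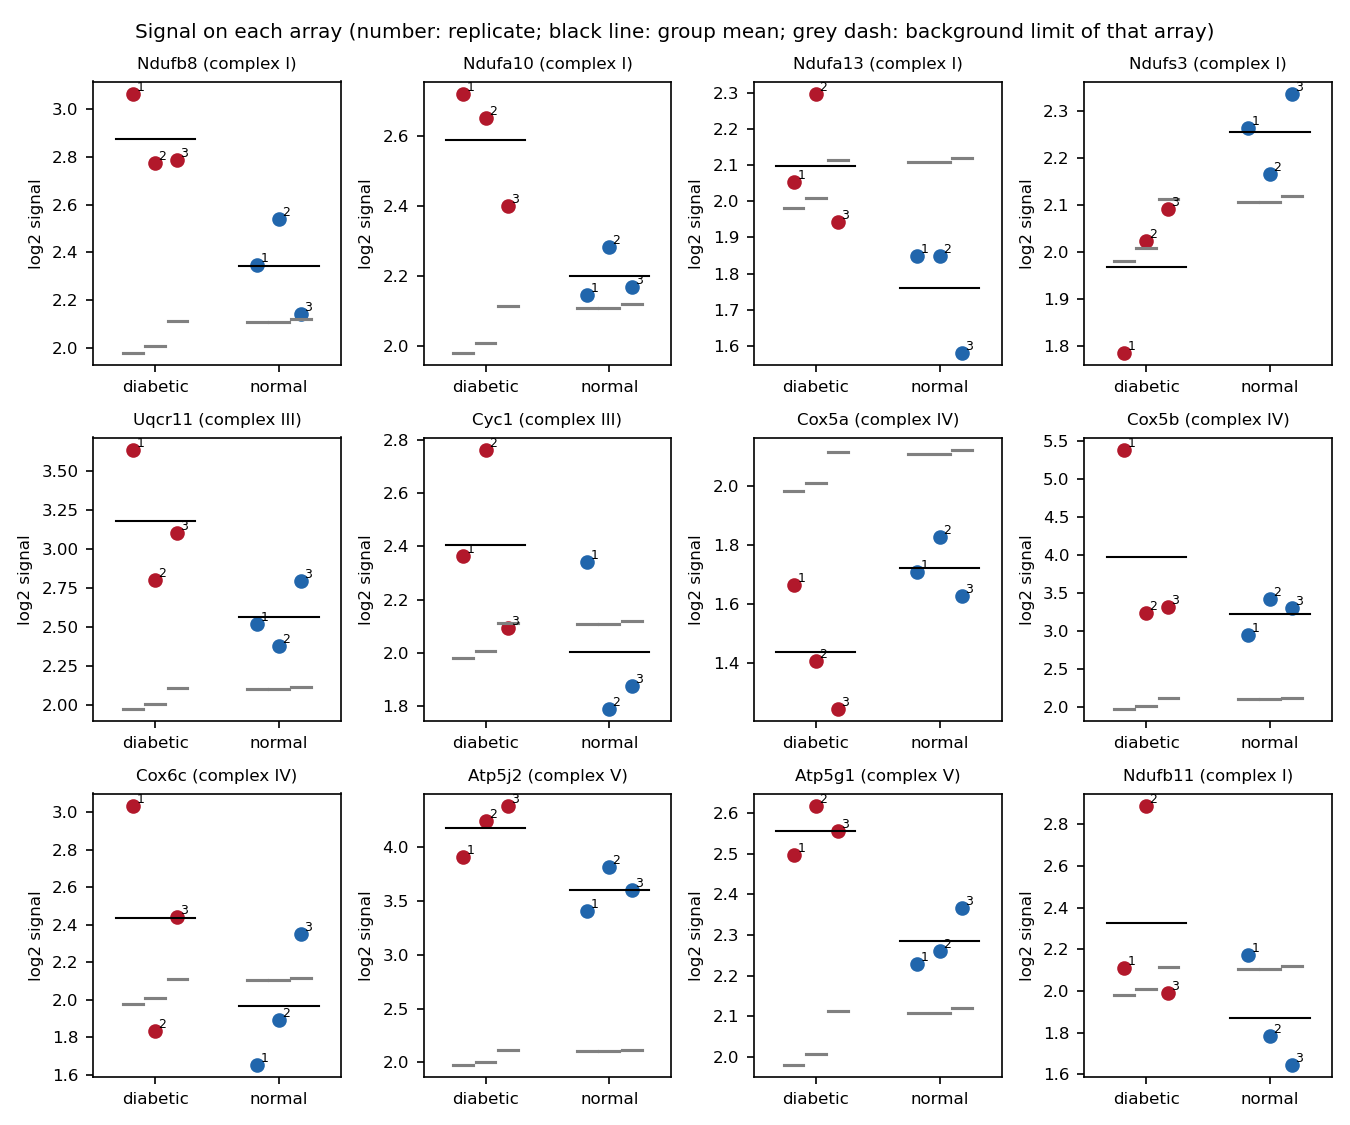
Log2 signal of 12 members on each array, diabetic on the left in red and normal on the right in blue, with the replicate number beside each point, the group mean as a black line and each array's background limit as a grey dash. The vertical axes differ between panels. Diabetic replicate 1 stands apart in Cox5b at 5.37, while Atp5j2, Ndufb8 and Atp5g1 have all diabetic points above all normal points.

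Complex IV, cytochrome c oxidase, had 11 of 17 members higher, with a median difference of 0.08, and much of this came from diabetic replicate 1. Cox5b, a zinc-binding subunit on the matrix side (probe set 10408044), was at 5.37, 3.24 and 3.31 on the diabetic arrays, against 2.95, 3.42 and 3.30 on the normal arrays. Without diabetic replicate 1 its difference of 0.75 (SE 0.44, adjusted p 0.893 in limma) was 0.05. Its other probe set was also high on that array, with 3.91, 3.02 and 2.67 on the diabetic arrays, against 2.60, 3.16 and 2.55 on the normal arrays. Cox6c, a small membrane subunit, was at 3.03, 1.84 and 2.44 on the diabetic arrays, against 1.66, 1.89 and 2.35 on the normal arrays. Its difference of 0.47 (SE 0.26, adjusted p 0.893) was 0.17 without diabetic replicate 1, and its other probe set gave 0.03. Cox8a, the widely expressed form of subunit 8, was at 3.58, 2.85 and 3.03 on the diabetic arrays, against 2.96, 2.98 and 3.07 on the normal arrays. Cox6b1, which faces the intermembrane space, was at 3.04, 2.33 and 2.14 on the diabetic arrays, against 2.20, 2.05 and 2.61 on the normal arrays. Both were again highest on diabetic replicate 1, and their differences of 0.15 and 0.21 were -0.07 and -0.05 without it. The median of complex IV was -0.02 without that array.

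Probe sets for Cox7c, a further subunit of complex IV, also named a related locus, Gm12338, and so were not counted as members. On diabetic replicate 1 the 3 of them were at 3.05, 2.84 and 3.97, while no other array exceeded 2.27. Of the 91 members, 4 stood at least 0.5 above their next array on diabetic replicate 1 (4.40%, against 0.341% of all genes), namely Cox5b, Cox6c, Cox8a and Uqcr11. On diabetic replicate 2 there was 1, Ndufb11, and on the other arrays 0. This gap was chosen with the values in view, and no share was taken among genes of like level. Of all 19938 genes 10261 were above the limit on no array, against 31 of the 91 members.

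Cox5a, the partner of Cox5b on the matrix side, was the member of complex IV with an unadjusted p under 0.05 and lower signal in diabetic samples. It was at 1.66, 1.41 and 1.25 on the diabetic arrays, against 1.71, 1.83 and 1.63 on the normal arrays. The groups overlapped slightly, with a difference of -0.28 (SE 0.12, adjusted p 0.887 in limma), and every value was under the background limit. So the signal bounds the RNA of Cox5a only from above.

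Several subunits of complex IV have forms for particular tissues. A pattern by tissue was not tested, and several of these forms were under the limit on every array. Cox6a2, Cox7a1 and Cox8b are the forms of heart and skeletal muscle. Cox6a2 was at 2.54, 2.71 and 2.25 on the diabetic arrays, against 2.11, 2.47 and 2.45 on the normal arrays, above the limit on all arrays, a difference of 0.16 (SE 0.16). Cox7a1 was at 1.80, 2.00 and 1.86 on the diabetic arrays, against 1.91, 1.95 and 2.01 on the normal arrays. Cox7a1 and Cox8b were under the limit on all arrays, with differences of -0.07 and 0.15. The diabetic values of Cox8b, at 1.94, 1.92 and 1.99, lay above the normal values, at 1.88, 1.68 and 1.83. The widely expressed partners Cox6a1, Cox7a2 and Cox8a differed by 0.03, -0.05 and 0.15. Cox6a1 was at 1.57, 1.98 and 2.14 on the diabetic arrays, against 1.98, 1.90 and 1.71 on the normal arrays, and Cox7a2 was under the limit throughout, at 1.44, 1.42 and 1.34 on the diabetic arrays, against 1.28, 1.48 and 1.60 on the normal arrays. The groups overlapped in both. Cox7a2l, which helps complexes III and IV associate, was at 2.74, 2.44 and 2.62 on the diabetic arrays, against 2.40, 2.67 and 2.21 on the normal arrays, a difference of 0.17 (SE 0.15).

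Cox4i1, the common form of subunit 4, was at 2.41, 2.13 and 2.31 on the diabetic arrays, against 2.34, 2.15 and 2.47 on the normal arrays. Cox4i2, the form known from lung and from hypoxia, was at 2.51, 2.48 and 2.00 on the diabetic arrays, against 2.12, 2.31 and 2.50 on the normal arrays. The groups overlapped in both, with differences of -0.04 (confidence interval -0.33 to 0.26) and 0.02 (-0.33 to 0.38). Cox6b2, a form known from testis, was at 2.81, 2.70 and 2.55 on the diabetic arrays, against 2.58, 2.56 and 2.48 on the normal arrays. Of the testis forms, Cox6b2 differed by 0.15, Cox7b2 by -0.02 and Cox8c by -0.19. Cox8c averaged 1.41 in diabetic samples and 1.60 in normal samples, with all diabetic values below all normal values, and all were under the background limit.

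ATP synthase, complex V, had 13 of 17 members higher, with a median difference of 0.06 that was 0.03 without diabetic replicate 1 or 3. Atp5j2, the f subunit of the membrane part (probe set 10535647), was at 3.91, 4.24 and 4.38 on the diabetic arrays, against 3.40, 3.82 and 3.60 on the normal arrays. Every diabetic value lay above every normal value, and all were well above the limit. The difference was 0.57 (SE 0.18, adjusted p 0.78 in limma), a ratio of 1.49, and lay between 0.47 and 0.70 with any array left out. Atp5g1 encodes the c subunit, which forms the rotating ring, and was at 2.50, 2.62 and 2.56 on the diabetic arrays, against 2.23, 2.26 and 2.37 on the normal arrays. These were also separate, with a difference of 0.27 (SE 0.12, adjusted p 0.887), while its other probe set gave 0.13. Atp5g2 and Atp5g3 encode the same mature subunit and differed by 0.13 and 0.20. For Atp5g3 the diabetic arrays at 1.65, 1.68 and 1.59 lay above the normal arrays at 1.38, 1.47 and 1.47, all under the limit.

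Atp5c1, the gamma subunit of the central stalk, was at 4.66, 4.16 and 4.08 on the diabetic arrays, against 3.74, 4.36 and 4.16 on the normal arrays, a difference of 0.21 (SE 0.21) that was 0.03 without diabetic replicate 1. The alpha and beta subunits Atp5a1 and Atp5b differed by 0.10 and 0.03, and were above the limit on all arrays. Atp5k and Atp5l encode the e and g subunits, which help the enzyme form dimers. Atp5k was at 2.50, 2.60 and 1.93 on the diabetic arrays, against 2.30, 2.17 and 1.79 on the normal arrays, a difference of 0.26 (SE 0.19) that was 0.13 without diabetic replicate 2 and 0.11 without normal replicate 3. Atp5l differed by -0.23 (SE 0.20), or -0.06 without either diabetic or normal replicate 2, and its 5 other probe sets ran from -0.17 to 0.08.

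**Figure D4:**
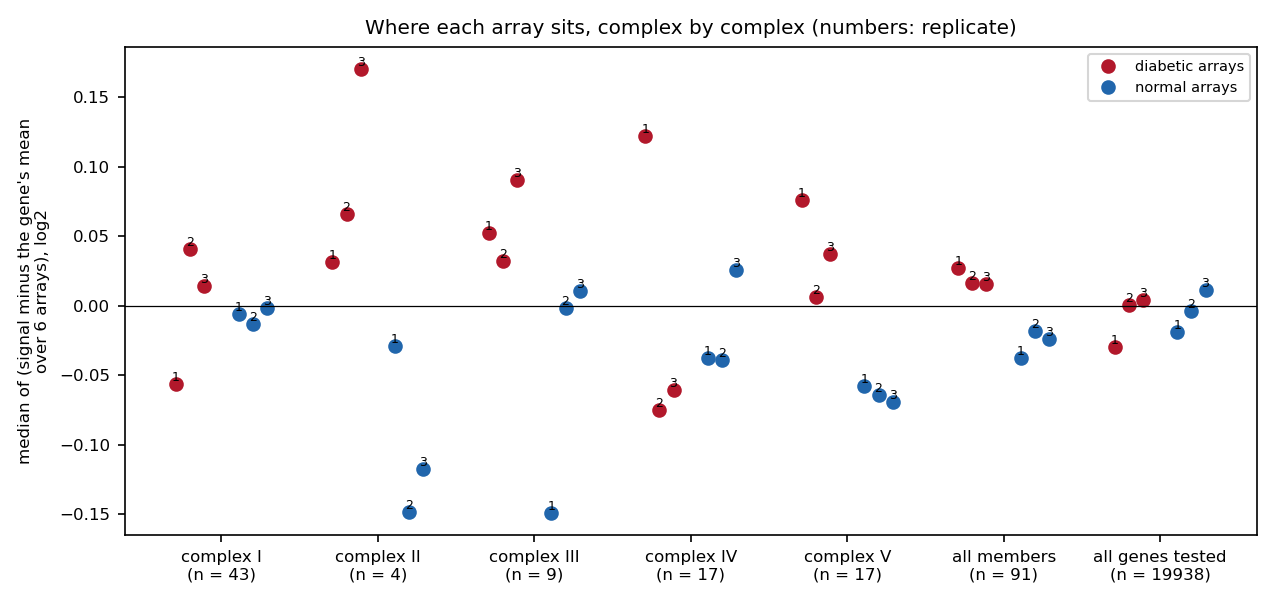
For each complex, all members and all genes, the median over genes of the signal minus that gene's mean over the 6 arrays (vertical, log2), with diabetic arrays in red left of normal arrays in blue and replicate numbers above the points. Complex IV is high on diabetic replicate 1 (0.12) and at -0.08 and -0.06 on the other diabetic arrays, while in complex V the diabetic arrays, from below 0.01 to 0.08, lie above the normal arrays, from -0.07 to -0.06.

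The complexes differed in how the arrays lay. In complex V the median over members of the signal minus the gene's mean was 0.08, 0.01 and 0.04 on the diabetic arrays, against -0.06, -0.06 and -0.07 on the normal arrays. In complex II it was 0.03, 0.07 and 0.17 on the diabetic arrays, against -0.03, -0.15 and -0.12 on the normal arrays. In complex III it was 0.05, 0.03 and 0.09 on the diabetic arrays, against -0.15, less than 0.01 in size, and 0.01 on the normal arrays. So in these medians the groups did not overlap, with normal replicate 1 low in complex III. Each of the 4 genes of complex II overlapped on its own. In complexes I and IV the medians overlapped, with diabetic replicate 1 at -0.06 in complex I and 0.12 in complex IV. Over all genes tested they overlapped too, at -0.030, 0.001 and 0.004 on the diabetic arrays, against -0.019, -0.004 and 0.011 on the normal arrays. Differences between complexes were not tested.

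Probe sets of 1 gene were a further source of spread. Of the 91 members 18 had several probe sets, with 27 beside those used, and 10 of the 27, in 8 genes, had a difference of opposite sign to the one used. The probe sets of Uqcrb (-0.15, -0.14 and -0.11) and Ndufs3 lay on the same side. Which probe set of a gene reads its RNA best was not tested. Genome positions of the probe sets were not used, so copies of a gene elsewhere in the genome could not be told from it. The brightest probe set of a gene, Cox5b included, may therefore read such a copy.

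Other genes of mitochondrial energy metabolism also gave no call, with 0 of each list past the adjusted threshold in limma. Of 19 measured genes of the citric acid cycle and pyruvate entry 12 were higher (63.2%, against 48.7% of all genes) and 7 lower, with a median of 0.05. At an unadjusted p under 0.05 there were 0 (5.56% of all genes). Values given here are differences. The smallest p was that of Pdk1, a kinase that shuts off pyruvate dehydrogenase, at 0.16 (SE 0.11), and its target Pdha1 was at 0.17. Of 35 assembly factors outside the symbol rule 20 were higher (57.1%), with 1 at an unadjusted p under 0.05 (5.56% of all genes). This was Ecsit, a complex I assembly factor, at 0.28 (SE 0.13), followed by Uqcc3 and Coa3, which act in complexes III and IV, at 0.31 and 0.36. Normal replicate 1 was low in both. Uqcc3 was at 1.20 on it, against 1.66 and 1.75 on the other normal arrays, and Coa3 at 1.37, against 2.09 and 2.20. All values of Ecsit and Uqcc3 were under the limit. Of 12 genes of ubiquinone synthesis 7 were higher (58.3%), with 1 at an unadjusted p under 0.05 (5.56% of all genes). This was Coq10a, a ubiquinone-binding protein, at -0.48 (SE 0.20). Its value on normal replicate 1 was 3.18, against 2.47 and 2.49 on the other normal arrays.

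Of 18 regulators of mitochondrial gene expression 8 were higher (44.4%, near the 48.7% of all genes), with a median of -0.06. An unadjusted p under 0.05 was found for 2, both lower (2.92% of all genes), and 15 of the 18 were above the limit on no array. Ppargc1a, the coactivator PGC-1alpha that drives respiratory genes, was at 1.53, 1.41 and 1.73 on the diabetic arrays, against 2.05, 1.81 and 1.78 on the normal arrays. Mterf3, a repressor of mitochondrial transcription, was at 1.49, 1.26 and 1.38 on the diabetic arrays, against 1.56, 1.94 and 1.74 on the normal arrays. In both genes all diabetic values lay below all normal values, with differences of -0.32 (SE 0.12, adjusted p 0.839 in limma) and -0.37 (SE 0.12, adjusted p 0.78). Tfam, the packaging factor of mitochondrial DNA, had a difference of -0.30 (SE 0.14). All 3 were under the background limit on every array, so each gives only a bound on its RNA. Of 10 carriers, pores and uncoupling proteins 4 were higher (40%), with 1 at an unadjusted p under 0.05 (5.56% of all genes). This was Ucp3, an uncoupling protein of muscle, with a difference of -0.29 (SE 0.12). None of 15 RNAs encoded in mitochondrial DNA had a probe set of its own among the genes tested.

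Markers of other cells that the captures could hold gave no call either. Of 8 adipocyte genes 5 were higher and of 8 fibroblast genes 5, with medians of 0.02 and 0.10, while 3 of 11 neutrophil and macrophage genes were higher, with a median of -0.03. The 15 keratinocyte markers were split 7 higher and 8 lower, with a mean signal of 1.94 to 2.03 in diabetic samples, against 2.02 to 2.10 in normal samples. The part of cell makeup in the members' differences was not tested.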

How the data were processed

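Signals were measured on 6 arrays, 3 diabetic and 3 normal, grouped and numbered by the sample titles. The authors deposited log2 probe set signals for 35556 probe sets. Base 2 was inferred from the values, which run from 0.308 to 13.3. The submitters' processing notes name Partek, with normalization not given in the sources used here. The files hold no slide or scan dates. Each title numbers its array as a biological replicate, but no label says that replicates came from separate mice. The p-values therefore cover only the spread among the arrays, and how much of it is technical was not tested. The number of arrays limits precision.

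Probe sets with 1 symbol (21789) gave 19938 genes, named through gene IDs (GRCm38.p6). Another 1621 probe sets had several symbols, 6 of them with a member's symbol, and 12146 were unnamed here. The group comparison used limma 3.58.1 under R 4.3.3 (lmFit and trended eBayes), with no further scaling and no filter on dim genes. The fit was tested on simulated data. Named with values were members with an unadjusted p under 0.05, the 2 brightest and 3 most different of each complex, all of complex II, Cyc1, Cycs and the complex IV isoforms, and up to 3 members of other lists. Further members are given as differences. Members and lists were chosen with earlier results of these data known.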

Additional observations from a re-analysis of the deposited data

How the results depend on the processing

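No member passed the adjusted threshold in any of 15 alternatives, which covered scaling, probe set choice, filters on dim genes, the variance model, array weights, the replicate block and each array left out. Over all genes the count was 0 except with 2 genes without diabetic replicate 2 and 1 without diabetic replicate 3 (range 0 to 2), none of them members. With arrays left out, members at an unadjusted p under 0.05 numbered 6 to 9 higher and 0 to 3 lower. The lower count was 1 with centred arrays, with either filter on dim genes and with the ordinary linear model. At an unadjusted p under 0.01 there were 2 higher and 0 lower, and with at least 1.5-fold 1 and 0. The median over members was 0.030 to 0.054 with an array left out. It was 0.10 among genes above the median gene and 0.15 among those above the mean limit, where 36 members were higher because fewer were kept. With the limit at the 99th percentile 7 members were above it on all arrays, and with the median gene as limit 41. For the 34 members named with values, 479 of 496 alternative differences kept their sign. Ndufa5 was at -0.050 after quantile normalization. With an array left out the lowest and highest differences were -0.12 and 0.039 for Cox4i1, -0.072 and 0.19 for Cox4i2, -0.088 and 0.19 for Cox6a1, -0.054 and 0.40 for Cox6b1, -0.14 and 0.020 for Cox7a2, -0.065 and 0.30 for Cox8a, -0.19 and 0.037 for Cycs, -0.030 and 0.12 for Ndufa5 and -0.012 and 0.42 for Uqcrh.

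No label pairs the arrays by replicate number. Deviations of same-numbered arrays correlated at -0.018, 0.008 and 0.014 across genes, and those of differently numbered arrays at -0.029 to 0.020. Of the 19938 genes, 10261 were above the limit on no array, so these correlations cannot exclude a pairing. With the replicate block 0 genes and 0 members passed, 7 members higher and 3 lower had an unadjusted p under 0.05, and the median difference was 0.05. Background correction and the slide as a block were not run, since the deposited values carry neither. Array background bounds every member under the limit, and small differences in its RNA were not detectable here.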
